A study of Macaca mulatta with 21 samples.

Results

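The genes described here are 9 members of the pluripotency network and markers of its naive and primed states: NANOG, DPPA4, ZFP42, ZSCAN10, UTF1, PRDM14, KLF17, VSNL1 and CD9. They were taken by symbol from the array's annotation and stand for 9 of 14133 genes and 12 of 52865 probe sets, with 3 probe sets for CD9, 2 for VSNL1 and 1 for each other member. Messenger RNA of rhesus macaque cells had been measured on Affymetrix arrays, which report each gene through probe sets of short oligonucleotides. There were 7 lines with 3 arrays each, lettered A, B and C, so 21 arrays in all. Values are log2 intensities that the authors computed with RMA (robust multi-array average).

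The biparental control is ORMES23, a male line of embryonic stem cells whose source was an IVF blastocyst (fertilized in vitro). Somatic cell nuclear transfer (SCNT, cloning) gave the blastocysts behind the male line CRES-1 and the female line CRES-3. The induced pluripotent lines were obtained with retroviral vectors for OCT4, SOX2, Klf4 and cMYC, from male fetal skin fibroblasts (RiPS1) and from adult female skin fibroblasts at 10 years (RiPS2) and 8 years (RiPS3). The fetal source of RiPS1 is that of its sample labels, whereas the treatment text speaks of adult skin for the induced lines as a whole. The Fibroblasts are skin cells of an adult female aged 8 years and carry no such vectors, per the labels. Mouse embryonic fibroblasts were the feeder cells of every line, Fibroblasts included, while the culture medium of the stem cells and the Fibroblasts differed. Stem cell RNA came from colonies picked by hand for an undifferentiated look. A shared skin fibroblast source of the cloned and induced lines is stated in the design text, whereas the labels leave the nuclear donors of both CRES lines unnamed. Each line is a single derivation, and p-values measure only the spread between its arrays.

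Pluripotent cells are held in their state by a network of transcription factors around OCT4, SOX2 and NANOG that activate one another and restrain differentiation. Naive cells resemble the epiblast before implantation, and primed cells, the usual state of primate embryonic stem cells, resemble the epiblast after it. NANOG is a homeodomain factor of the core network. PRDM14 is a zinc finger regulator that supports pluripotency and germ cell formation. ZSCAN10 and UTF1 are further nuclear factors of embryonic stem cells, DPPA4 is a chromatin-associated protein of early embryos, and ZFP42 (REX1) is a classic marker of undifferentiated cells. KLF17 is a marker of naive human cells. VSNL1 encodes a neuronal calcium sensor, and CD9 a tetraspanin of the cell surface that is found on stem cells and on many other cells.

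The labelled cell types were checked against marker genes. The mean of the 5 pluripotency markers on the array, of 8 listed, lay between 11.5 and 11.9 on the 18 pluripotent arrays and between 4.07 and 4.60 on the Fibroblasts arrays. The mean of 11 fibroblast markers, of 12 listed, lay between 6.47 and 7.36 on the pluripotent arrays and at 10.2 on each Fibroblasts array. Of those 11, DCN averaged 6.57 on the pluripotent and 6.44 on the Fibroblasts arrays, and FBLN1 9.18 and 9.52, so these markers hardly told them apart. By the means of the markers, no array went against its label.

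Differences were fitted with limma over all 11143 genes at log2 5 or more on at least 3 arrays, and all 9 members passed that filter. A gene under log2 5 on every array of a group, such as DPPA4 and VSNL1 in the Fibroblasts, passed through other groups alone. The direction of its difference from those groups is thus partly fixed by the filter. A gene is said to have risen or fallen, or to be called, at a Benjamini-Hochberg adjusted p under 0.05 with at least a 2-fold difference. Where the dimmer line averaged under log2 5, near the background of the array, the fold is given as a lower bound counted from log2 5, since a log2 difference from such a value is no measured ratio. In such bulk RNA, fewer cells of a type and less RNA per cell cannot be told apart.

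Of the 9 members, DPPA4, ZSCAN10, PRDM14 and VSNL1 were higher in all 6 pluripotent lines than in the Fibroblasts, and CD9 was lower in all 6. NANOG, read by its single probe set, was also lower in every pluripotent line, and that fall was called in 4 of them. ZFP42 was called in 1 line, ORMES23, and UTF1 in 1 line, CRES-3, whereas KLF17 was called in none. The 6 comparisons share the Fibroblasts arrays, so they are not independent of one another.

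**Figure D1:**
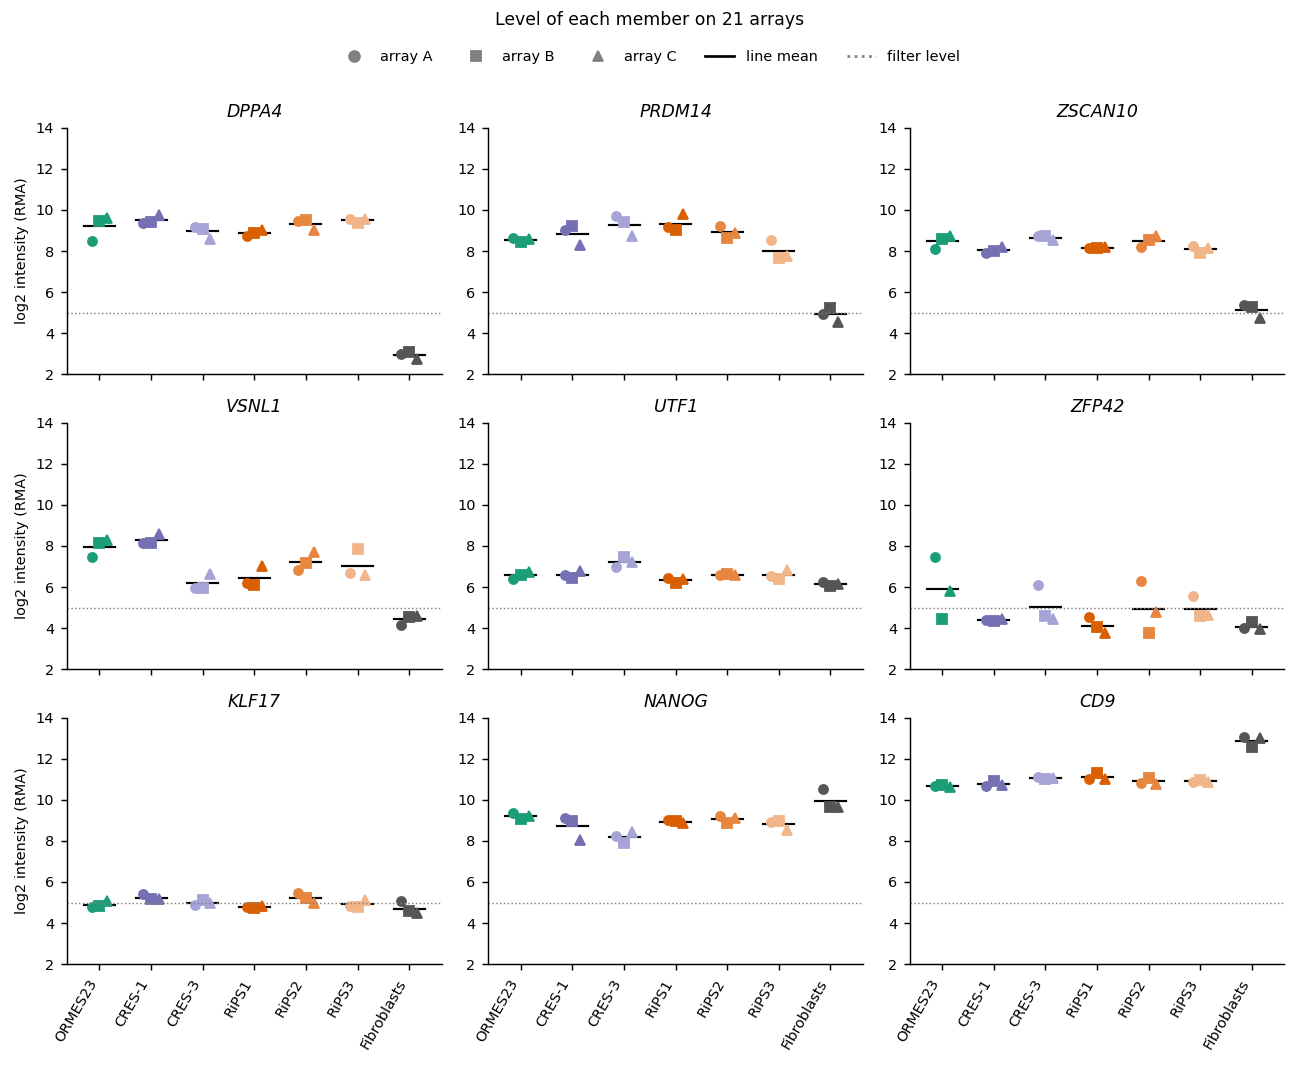
Log2 intensity (vertical axis) of the 9 members on each of the 21 arrays, grouped by line, each gene read from its brightest probe set, with a bar for the mean of each line and a dotted line at the filter level of log2 5. DPPA4, ZSCAN10, PRDM14 and VSNL1 stand higher on all 18 pluripotent arrays than on the Fibroblasts arrays, whereas NANOG and CD9 stand lower on all 18. The share of all genes that separate in this way was not counted. By line, 62.9% to 68.2% of all genes tested had an unadjusted limma p under 0.05 against the Fibroblasts.

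In ORMES23, 5 members rose and 1 fell against the Fibroblasts, beside 18.5% of all genes tested that rose and 14.1% that fell. In CRES-1, 4 rose and 2 fell (16.4% and 14.2% of all genes). CRES-3 had 5 members higher and 2 lower (19.1% and 14.2%). RiPS1 had 4 higher and 2 lower (19.3% and 13.5%), RiPS2 had 4 and 1 (17.2% and 14.6%), and RiPS3 had 4 and 2 (18.3% and 14.2%). The median log2 difference of the members was 1.84 in ORMES23, 0.54 in CRES-1, 1.08 in CRES-3, 0.19 in RiPS1, 0.87 in RiPS2 and 0.86 in RiPS3. With line means under log2 5 set to it, these medians were 0.92, 0.47, 1.08, 0.19, 0.46 and 0.43. The ORMES23 median is the value of ZFP42 itself and was 1.06 without array A of that line. Over all genes tested, the medians lay between 0.02 and 0.05, and the members' medians join genes that rose with genes that fell.

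NANOG (probe set MmugDNA.16220.1.S1_at) had its highest values in the Fibroblasts, at 10.54, 9.65 and 9.67 on arrays A, B and C. ORMES23 read 9.38, 9.07 and 9.22, CRES-1 9.12, 8.99 and 8.05, and CRES-3 8.22, 7.88 and 8.44. The induced lines read 9.01, 8.97 and 8.86 in RiPS1, 9.21, 8.87 and 9.12 in RiPS2, and 8.93, 8.96 and 8.53 in RiPS3. No pluripotent array reached the lowest Fibroblasts array, and array A of the Fibroblasts stood well above the other two. The difference from the Fibroblasts was -1.78 (SE 0.26) in CRES-3, -1.24 in CRES-1, -1.15 in RiPS3 and -1.01 in RiPS1, with adjusted p of 8.9e-06, 0.00042, 0.00077 and 0.0022 in limma. In ORMES23 (-0.73, adjusted p 0.019) and RiPS2 (-0.89, adjusted p 0.0058) it was under 2-fold and not called. Without array A of the Fibroblasts the calls were lost in CRES-1 (-0.95), RiPS1 (-0.72) and RiPS3 (-0.86). CRES-1 also lost its call without its own array C (-0.91), and RiPS1 without its own array C (-0.97). RiPS2 passed the limit without Fibroblasts array B (-1.04) or C (-1.03). The direction of this probe set is opposite to that of POU5F1 and SOX2, the other core factors, which rose at least 123-fold to 184-fold and at least 129-fold to 151-fold in the 6 lines. Whether the probe set measures NANOG alone was not tested, because its sequence was not used here. Over the 18 pluripotent arrays its r was 0.75 with the mean of the early differentiation list and 0.56 with the fibroblast list.

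DPPA4 (MmugDNA.42677.1.S1_at) read 2.97, 3.07 and 2.76 on the Fibroblasts arrays, near background. ORMES23 read 8.51, 9.48 and 9.60, CRES-1 9.37, 9.43 and 9.75, and CRES-3 9.18, 9.10 and 8.59. RiPS1 read 8.75, 8.88 and 9.01, RiPS2 9.47, 9.50 and 9.04, and RiPS3 9.56, 9.37 and 9.58. The lowest pluripotent array, array A of ORMES23, was still far above every Fibroblasts array. The log2 difference ran from 5.95 in RiPS1 to 6.59 in CRES-1 (SE 0.23), a rise of at least 14.7-fold in RiPS1 and at least 22.9-fold in CRES-1, with an adjusted p of at most 3.5e-13 in each line.

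ZSCAN10 (MmugDNA.39396.1.S1_at) read 5.38, 5.26 and 4.76 in the Fibroblasts and 7.89 to 8.75 over the pluripotent arrays. Its means were 8.66 ± 0.11 (SD, n = 3) in CRES-3, 8.49 ± 0.33 in ORMES23, 8.49 ± 0.29 in RiPS2, 8.16 ± 0.02 in RiPS1, 8.10 ± 0.18 in RiPS3 and 8.04 ± 0.16 in CRES-1. No neighbours in that order differed beyond their spread, but its ends did: ZSCAN10 was 0.62 lower in CRES-1 than in CRES-3 (adjusted p 0.043 in limma), which is under 2-fold and not called. ZSCAN10 rose 11.5-fold in CRES-3, 10.2-fold in ORMES23 and RiPS2, 8.16-fold in RiPS1, 7.81-fold in RiPS3 and 7.48-fold in CRES-1, with an adjusted p of at most 2.3e-10 in each line.

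PRDM14 (MmuSTS.2310.1.S1_at) read 4.94, 5.24 and 4.57 in the Fibroblasts. ORMES23 read 8.62, 8.42 and 8.60, CRES-1 9.0, 9.23 and 8.28, and CRES-3 9.71, 9.41 and 8.72. RiPS1 read 9.16, 9.04 and 9.81, RiPS2 9.23, 8.64 and 8.86, and RiPS3 8.54, 7.68 and 7.74. All pluripotent arrays lay above all Fibroblasts arrays, and RiPS3 held the lowest of them. The rise was at least 20.2-fold in RiPS1 (log2 difference 4.42, SE 0.30), 19.5-fold in CRES-3, 15.0-fold in RiPS2, 14.3-fold in CRES-1 and 11.7-fold in ORMES23. In RiPS3 the rise was at least 7.92-fold (3.07, adjusted p 8.4e-08).

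UTF1 (MmugDNA.8190.1.S1_at) moved little. The Fibroblasts read 6.23, 6.05 and 6.15. CRES-3 read 6.99, 7.44 and 7.24, and the other 15 pluripotent arrays lay between 6.22 (RiPS1 array B) and 6.82 (RiPS3 array C). CRES-3 thus stood above every other array, while 17 of the 18 pluripotent arrays exceeded the highest Fibroblasts array. UTF1 rose 2.11-fold in CRES-3 (log2 difference 1.08, SE 0.14, adjusted p 2.2e-06 in limma), but the difference was 0.97 without array B of that line and 0.94 after a second quantile normalization, both under 2-fold. In the other lines the difference was 0.19 to 0.47, all under 2-fold. In RiPS1 the 95% interval ran from -0.10 to 0.48. In ORMES23, CRES-1, RiPS2 and RiPS3 the limma fit of all probe sets gave adjusted p of 0.0091 to 0.016.

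ZFP42 (MmugDNA.2179.1.S1_at) was near background on most arrays. The Fibroblasts read 4.00, 4.29 and 3.93. ORMES23 read 7.49, 4.44 and 5.82, CRES-1 4.40, 4.34 and 4.43, and CRES-3 6.10, 4.59 and 4.46. RiPS1 read 4.53, 4.03 and 3.75, RiPS2 6.27, 3.77 and 4.80, and RiPS3 5.55, 4.59 and 4.66. Only 5 of the 18 pluripotent arrays reached log2 5, and in 5 of the 6 pluripotent lines the highest array was A. The spread within pluripotent lines (pooled SD 0.93) was wider than that of 99.5% of the genes tested. ZFP42 was called in ORMES23 (log2 difference 1.84, SE 0.64, adjusted p 0.017), with a bound of at least 1.89-fold, and the call was lost without array A of that line (1.06, adjusted p 0.132). Differences in the other lines ran from 0.03 in RiPS1 to 0.97 in CRES-3, with 95% intervals of -1.31 to 1.37 and -0.37 to 2.31. ORMES23 and CRES-3, the highest lines, did not differ beyond their spread (0.87, adjusted p 0.54).

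KLF17 (MmugDNA.31139.1.S1_at), the naive marker, read 4.74 to 5.46 on the pluripotent arrays and 5.06, 4.58 and 4.49 in the Fibroblasts. The groups overlapped, with 8 of 18 pluripotent arrays above the highest Fibroblasts array, and 8 of 18 at log2 5 or more. The differences were 0.54 in CRES-1, 0.51 in RiPS2, 0.27 in CRES-3, 0.22 in RiPS3, 0.19 in ORMES23 and 0.08 in RiPS1 (SE 0.16). CRES-1 and RiPS2 had adjusted p of 0.0062 and 0.0080 but lay well under 2-fold.

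VSNL1 (MmugDNA.9210.1.S1_at) read 4.14, 4.56 and 4.61 in the Fibroblasts. ORMES23 read 7.44, 8.16 and 8.30, CRES-1 8.15, 8.14 and 8.56, and CRES-3 5.97, 5.95 and 6.65. RiPS1 read 6.17, 6.08 and 7.03, RiPS2 6.85, 7.15 and 7.72, and RiPS3 6.69, 7.84 and 6.61. Every pluripotent array exceeded the Fibroblasts, and no array of CRES-3 or RiPS1 reached the lowest one of ORMES23. VSNL1 rose at least 9.74-fold in CRES-1, 7.81-fold in ORMES23, 4.73-fold in RiPS2, 4.14-fold in RiPS3, 2.69-fold in RiPS1 and 2.29-fold in CRES-3 (log2 difference 1.76, SE 0.34, adjusted p 0.00019).

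CD9 (Mmu.7236.1.S1_s_at) read 13.06, 12.59 and 13.01 in the Fibroblasts. Pluripotent arrays lay between 10.61 (ORMES23 array C) and 11.33 (RiPS1 array B), all below them. It fell 4.65-fold in ORMES23 (log2 difference -2.22, SE 0.13), 4.30-fold in CRES-1, 3.97-fold in RiPS2 and RiPS3, 3.56-fold in CRES-3 and 3.40-fold in RiPS1, with an adjusted p of at most 1.3e-09 in each line. The spread within pluripotent lines was narrow (pooled SD 0.12).

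**Figure D2:**
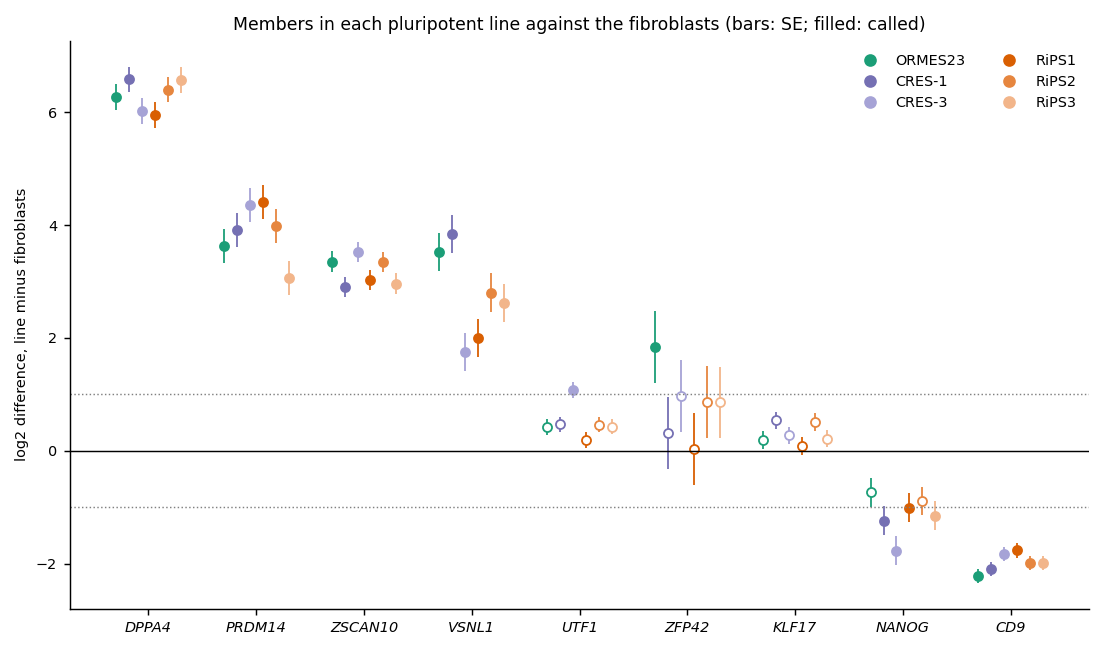
Log2 difference of each member between each of the 6 pluripotent lines and the Fibroblasts, with bars for the SE from the limma fit, filled points for calls and dotted lines at a 2-fold difference. DPPA4, PRDM14, ZSCAN10 and VSNL1 lie above 0 in all 6 lines, and CD9 and NANOG lie below 0 in all 6. KLF17 (0.08 to 0.54), UTF1 (0.19 to 1.08) and ZFP42 (0.03 to 1.84) also lie above 0. Of these, only UTF1 in CRES-3 and ZFP42 in ORMES23 are called.

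Several probe sets allowed a check of VSNL1 and CD9. The second VSNL1 probe set, MmugDNA.8865.1.S1_at, correlated with the first at r = 0.97 over 21 arrays and 0.98 over the 18 pluripotent arrays. It was under log2 5 in the Fibroblasts and rose at least 2.01-fold in CRES-3 and at least 6.97-fold in CRES-1. It also gave the lower values in CRES-3 (-1.51, adjusted p 0.048) and RiPS1 (-1.37, adjusted p 0.045) against ORMES23. Of the 15 pairs of pluripotent lines it was called in 4 and the first probe set in 5, and the pair called by the first alone was CRES-1 over RiPS3, where the second gave 0.90 (adjusted p 0.22). For CD9, the probe sets Mmu.7236.1.S1_at and MmuSTS.3583.1.S1_at were lower in all 6 lines too, the former by at least 3.06-fold and the latter by log2 differences of -2.50 to -2.01. Over 21 arrays the r between CD9 probe sets was 0.95 to 0.98. Within the pluripotent arrays it was 0.17, 0.64 and 0.75, and Mmu.7236.1.S1_at was under log2 5 on all of those arrays. The 3 probe sets of CD9 thus shared the step from the Fibroblasts, while their r was lower within the pluripotent arrays.

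**Figure D3:**
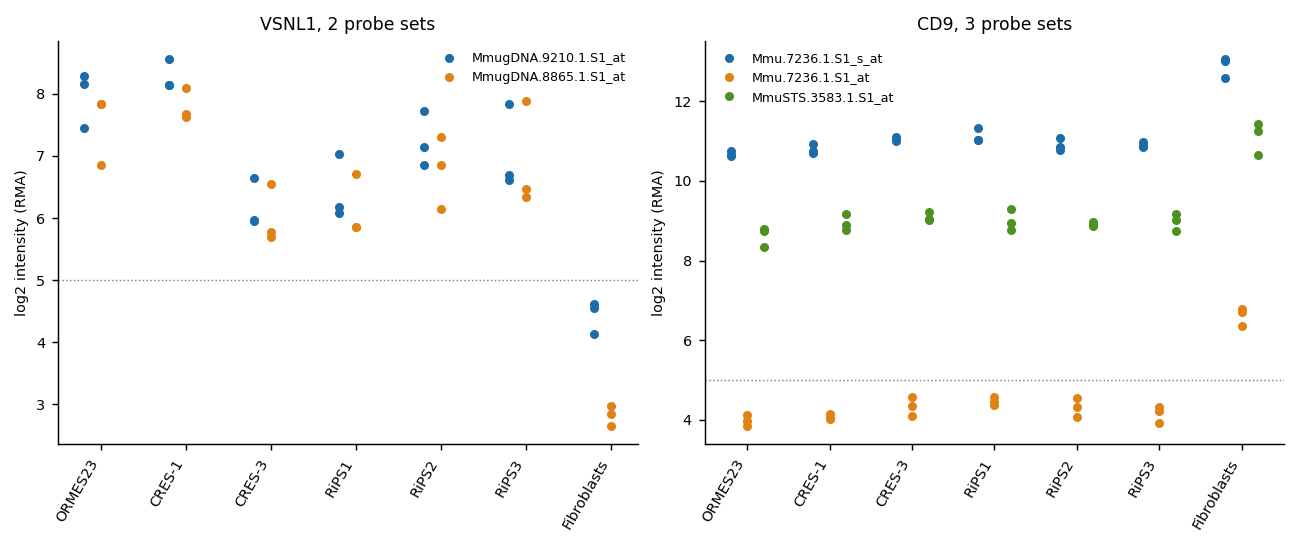
Log2 intensity of each probe set of VSNL1 and CD9 on the 21 arrays, grouped by line, with 1 point per array and a dotted line at log2 5. Both VSNL1 probe sets are lowest in the Fibroblasts and lower in CRES-3 and RiPS1 than in ORMES23, and all 3 CD9 probe sets are highest in the Fibroblasts.

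The embryo-derived ORMES23 served as the reference for the cloned and induced lines. Those 5 comparisons share its arrays, and for the female lines sex and derivation cannot be told apart. VSNL1 was lower than in ORMES23 in CRES-3 (-1.77, SE 0.34, adjusted p 0.0091, 3.42-fold) and in RiPS1 (-1.54, SE 0.34, adjusted p 0.0084, 2.90-fold). NANOG was lower in CRES-3 (-1.04, SE 0.26, adjusted p 0.038, 2.06-fold). So 2 members were called in CRES-3 (0.996% of all genes tested) and 1 in RiPS1 (2.4%). No member was called in CRES-1 (0% of all genes), RiPS2 (0.458%) or RiPS3 (0.763%) with limma, although 3, 1 and 2 members had an unadjusted p under 0.05 there. For CRES-1, no gene of the whole table was called, while 1270 had an unadjusted p under 0.05, beside 1327 for RiPS2 and 1627 for RiPS3. The NANOG call in CRES-3 was lost without any array of ORMES23, or array A or B of CRES-3, with values of -1.17 to -0.89 over all alternatives. The VSNL1 call in CRES-3 was lost without array B or C of ORMES23 or array A or B of CRES-3, at adjusted p of up to 0.058, with values from -2.03 to -1.61. ZFP42, not called in RiPS1 against ORMES23, was called there without array B of ORMES23 (-2.55, adjusted p 0.024). UTF1 was 0.66 higher in CRES-3 (adjusted p 0.016) and CD9 0.45 higher in RiPS1 (adjusted p 0.034), both under 2-fold.

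Cloned and induced lines were compared within each sex. In the male pair, VSNL1 was 3.62-fold higher in CRES-1 than in RiPS1 (log2 difference 1.86, SE 0.34, adjusted p 0.0024), the only member called there (2.14% of all genes tested were). DPPA4 differed by 0.64 (95% interval 0.15 to 1.12), PRDM14 by -0.50 (-1.13 to 0.14), KLF17 by 0.46 and CD9 by -0.34. NANOG (-0.23), ZSCAN10 (-0.13), UTF1 (0.27) and ZFP42 (0.29) differed by less. In the female pair, no member was called between CRES-3 and RiPS3 with limma, beside 0.0359% of all genes, although 6 members, and 881 of all 11143 genes tested, had an unadjusted p under 0.05. PRDM14 was nearest, 1.30 higher in CRES-3 (95% interval 0.66 to 1.93, adjusted p 0.13), and without array A of RiPS3 it was called (1.58, adjusted p 0.033). UTF1 was 0.65 higher (adjusted p 0.093), ZSCAN10 0.56 higher, VSNL1 0.86 lower, NANOG 0.63 lower and DPPA4 0.55 lower in CRES-3. CD9 (0.16), ZFP42 (0.12) and KLF17 (0.06) stood close to 0.

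The cloned minus induced difference was then compared between the male and the female pair, as an interaction term. It was larger in the male pair for VSNL1 by 2.71 (SE 0.48, adjusted p 0.0041) and for DPPA4 by 1.19 (SE 0.32, adjusted p 0.043), and lower for PRDM14 (-1.79, SE 0.43, adjusted p 0.022). Of all genes tested, 2.89% passed this test. Each pair consists of 1 cloned and 1 induced line, which differ in donor or derivation as well as in sex, so line and sex cannot be told apart. The DPPA4 term was lost without any 1 of 11 of the 12 arrays involved. The PRDM14 term was lost without array A or B of CRES-3 or array B or C of RiPS3, while the VSNL1 term passed under every alternative (2.32 to 3.01).

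**Figure D4:**
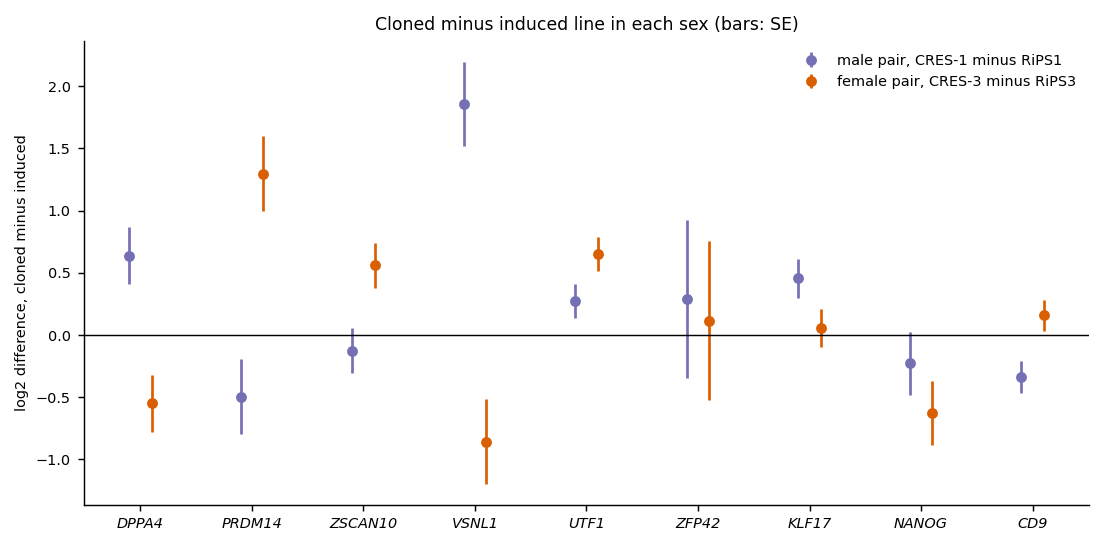
Cloned minus induced log2 difference of each member in the male pair (CRES-1 minus RiPS1) and the female pair (CRES-3 minus RiPS3), with bars for the SE from the limma fit. VSNL1 and DPPA4 lie above 0 in the male pair and below 0 in the female pair, and PRDM14 the other way round.

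Over the 6 pluripotent lines, VSNL1 (range of line means 2.09, F test adjusted p 0.00156) and PRDM14 (range 1.35, adjusted p 0.0261) were called as varying, beside 7.52% of all genes. The VSNL1 range was wider than that of 98.9% of the genes tested. The PRDM14 call was lost without array B of CRES-3 or array B or C of RiPS3. UTF1 (range 0.88, adjusted p 0.0042) varied by less than 2-fold, but was called without array A of CRES-3 (range 1.00). NANOG (range 1.04) had an adjusted p of 0.066, and ZFP42 (range 1.82), with its wide spread, one of 0.285. Without array C of CRES-1, NANOG was called as well. VSNL1 was called in 5 of the 15 pairs of pluripotent lines, NANOG and PRDM14 in 1 each, and the other 6 members in none. Beside the pairs above, these were VSNL1 in CRES-1 over CRES-3 (2.09, adjusted p 0.0016, with 2.61% of all genes called) and, on the first probe set alone, over RiPS3 (1.24, adjusted p 0.049, 1.53%), and PRDM14 in RiPS1 over RiPS3 (1.35, adjusted p 0.0095, 2.44%). No member was called between CRES-1 and RiPS2 (0.709%), CRES-3 and RiPS1 (2.03%), CRES-3 and RiPS2 (1.48%), RiPS1 and RiPS2 (3.61%) or RiPS2 and RiPS3 (1.18%). The fits without single arrays were not read out for these further pairs, so how far their calls rest on 1 array is not known. UTF1 was, however, 0.88 higher in CRES-3 than in RiPS1 (adjusted p 0.00073) and 0.61 higher than in RiPS2 (adjusted p 0.018).

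By mean level, VSNL1 was ordered CRES-1, ORMES23, RiPS2, RiPS3, RiPS1, CRES-3 and Fibroblasts, and PRDM14 RiPS1, CRES-3, RiPS2, CRES-1, ORMES23, RiPS3 and Fibroblasts. DPPA4 ran from CRES-1 through RiPS3, RiPS2, ORMES23 and CRES-3 to RiPS1, then the Fibroblasts. NANOG ran from the Fibroblasts through ORMES23, RiPS2, RiPS1, RiPS3 and CRES-1 to CRES-3. CD9 ran from the Fibroblasts through RiPS1, CRES-3, RiPS2, RiPS3 and CRES-1 to ORMES23. Among neighbouring pluripotent lines in these orders and in those of the other members, only UTF1 in CRES-3 over CRES-1 differed beyond the spread (0.61, adjusted p 0.013). The step between the Fibroblasts and the pluripotent line nearest to them did so for NANOG, DPPA4, ZSCAN10, PRDM14, VSNL1 and CD9. It did not for ZFP42, UTF1 and KLF17, where that nearest line was RiPS1.

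Correlations over all 21 arrays include the step between the Fibroblasts and the pluripotent lines, and members differed in sign and size. DPPA4 and ZSCAN10 had r = 0.96 over 21 arrays and -0.03 over the 18 pluripotent arrays. DPPA4 and CD9 had r = -0.97 and -0.35. NANOG and UTF1 had r = -0.78 over 21 arrays, near their value without the Fibroblasts. Within the pluripotent arrays, r was -0.76 between NANOG and UTF1, -0.72 between VSNL1 and CD9, 0.60 between ZSCAN10 and UTF1 and 0.51 between DPPA4 and KLF17. VSNL1 had r = 0.61 with the mean of the early differentiation list, and PRDM14 0.54 with that of the network list. UTF1 had r = -0.64 with the fibroblast list. Arrays of a line share that line, so these are descriptions of 18 arrays from 6 lines.

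The genes most like each member were taken by Pearson's r, first over 21 arrays and then over the 18 pluripotent arrays. For NANOG they were MACROH2A1 (0.91), ATP6V0E1 (0.85) and TWIST1 (0.85), then GALC (0.87), MACROH2A1 (0.84) and TUSC1 (0.83). DPPA4 was closest to CEP85, SEC31B and GPC4 (0.99 each), then BUB3 (0.80), BMP4 (0.78) and NPAS4 (0.77). ZSCAN10 was closest to CS, SNRPN and CSPP1 (0.99 each), then CS (0.89), CA11 (0.88) and B9D2 (0.88). MACROH2A1 was thus near NANOG, and CS near ZSCAN10, with and without the Fibroblasts.

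PRDM14 was closest to KSR1 (0.98), AGO1 (0.96) and TMEM131L (0.96), then RNPEP (0.86), KSR1 (0.81) and GGNBP2 (0.79). UTF1 was closest to EIF3F (0.87), LARGE2 (0.82) and CHD5 (0.81), then SPNS1 (0.84), SLC12A9 (0.83) and EIF3F (0.82). For VSNL1 the genes were ZNF614, CDH10 and GDF6 (0.93 each), then GDF6 (0.95), DNER (0.88) and LGI1 (0.87). DNER averaged 3.21 to 4.63 in the pluripotent lines, under log2 5 and so near background. LGI1 (3.88 to 5.41) and GDF6 (4.55 to 5.69) were under log2 5 in some of them. GDF6, a ligand of the BMP family, was near VSNL1 in both sets. ZFP42 was closest to GSTM3 (0.74), ELAVL4 (0.68) and ENTPD6 (0.66), then GSTM3 (0.80), LOC711208 (0.77) and LRRC61 (0.76). KLF17 was closest to AVPR1A (0.90), MRGPRX1 (0.84) and SYNGR4 (0.84), then LOC696462 (0.94), GRAP (0.90) and LOC715023 (0.90). CD9 was closest to PSMB8 (0.99), DOCK10 (0.98) and ENG (0.98), then IL6R (0.84), NAP1L2 (0.84) and RBBP5 (0.83). In the pluripotent lines, LOC715023 averaged 4.55 to 4.83 and DOCK10 2.89 to 3.38, also under log2 5.

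Other genes of the network and of the states were read from lists that hold none of the members. Lists and members were chosen with earlier results of these data known, so the lists are no independent support for the members. Of 17 network genes tested, 13 rose in ORMES23, CRES-1, RiPS2 and RiPS3 and 14 in CRES-3 and RiPS1 against the Fibroblasts. Of all genes tested, 16.4% to 19.3% rose by line. The median log2 difference of the network genes was 2.46 to 3.41, or 2.39 to 3.40 with line means under log2 5 set to it. LIN28B, an RNA-binding protein that blocks let-7, rose at least 71.2-fold to 97.9-fold, and the DNA methyltransferase DNMT3B at least 129-fold to 181-fold. FGF2, a growth factor named after its values were seen, fell in all 6 lines (-2.14 to -1.40). Among pluripotent lines 0 of the 17 varied by the F test, beside 7.52% of all genes tested. Whether such shares of a short list differ from that of all genes was not tested.

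Of 15 primed genes tested, 9 rose in RiPS1 and 10 in the other lines, and 2 or 3 fell in each, with medians of 2.01 to 2.33 (1.74 to 2.13 with line means under log2 5 set to it). Of all genes tested, 16.4% to 19.3% rose and 13.5% to 14.6% fell by line, so the number that fell is near that share. The neural and stem cell factors SALL2 (log2 difference 4.37 to 4.89), ZIC2 (5.53 to 6.02) and SOX11 (at least 11.5-fold to 16.8-fold) and the receptor phosphatase PTPRZ1 (at least 5.67-fold to 12.8-fold) rose in all 6 lines. SFRP2 (-2.23 to -1.57) and STC1 (-2.74 to -1.65), named after their values were seen, fell in all 6. PTPRZ1 was 1 of 3 primed genes that varied among the pluripotent lines (20%, beside 7.52% of all genes). The others, named after their values were seen, were CYTL1 and THY1. THY1 is also in the fibroblast list and fell in 3 lines.

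Of 17 naive genes on the array, 9 were tested. The other 8 (DPPA5, NR0B1, DNMT3L, ALPG, KHDC3L, HORMAD1, MAEL and FBP1) were at log2 5 or more on 0 arrays. Between 1 and 2 of the 9 rose in a line and between 2 and 4 fell. Of all genes tested, 16.4% to 19.3% rose and 13.5% to 14.6% fell by line, so the number that rose is near that share. The medians of the naive genes were -0.60 to -0.15. Those medians leave out the 8 genes under log2 5 throughout, so they describe only the genes that passed the filter. NLRP7, a maternal-effect gene, rose in all 6 lines (2.36 to 3.52) and was the only naive gene tested that varied among them (11.1%, beside 7.52% of all genes). IL6ST, the shared receptor of LIF and other cytokines, fell at least 2.55-fold in all 6 lines. It was under log2 5 in all 6 and passed the filter through the Fibroblasts arrays alone, so it could only fall. The factor TBX3 fell in 5 (-0.95 where not called, and at least 6.39-fold lower in CRES-3, under log2 5 there), and KLF4 in 4 (-1.88 to -0.57 over all 6). A factor of that name was among the vectors of the induced lines.

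The remaining lists describe other cells that a culture could hold. Of 18 fibroblast genes tested, 0 rose and 12 to 15 fell in each line. Of all genes tested, 16.4% to 19.3% rose and 13.5% to 14.6% fell by line. PRRX1 (at least 12.9-fold in each line), FAP (at least 18.6-fold in each), COL6A2 (-4.56 to -4.01) and COL6A1 (-4.44 to -3.25), which encode a mesenchymal factor, a surface protease and collagen chains, fell in all 6. PRRX1 and FAP averaged under log2 5 in all 6 lines, so, like IL6ST, they could only fall. The count of falls includes such genes. The list mean was 7.42 to 8.43 on pluripotent arrays against 10.6 to 10.9 on Fibroblasts arrays. Among the pluripotent lines 8 of the 18 varied (44.4%, beside 7.52% of all genes). Of 20 early differentiation genes tested, 3 to 8 rose and 2 or 3 fell in a line. The number that fell is near the 13.5% to 14.6% of all genes, and 16.4% to 19.3% of all genes rose. The mesendoderm factor EOMES (at least 6.03-fold to 29.0-fold) and the ligand BMP4 (2.86 to 5.02) rose in all 6 lines, while keratin KRT7 (-4.51 to -3.22) and TFAP2A (-2.13 to -1.23) fell in all 6. Of these 20 genes, 2 varied among the lines (10%, near the 7.52% of all genes). The early differentiation mean was 6.94 in ORMES23, 6.64 in CRES-1, 6.62 in RiPS3, 6.47 in RiPS2, 6.44 in RiPS1 and 6.02 in CRES-3, against 5.93 in the Fibroblasts. ORMES23 and CRES-1 were thus highest both here and for VSNL1, and CRES-3 was the lowest pluripotent line both here and for NANOG and VSNL1. Other orders did not match. For NANOG only CRES-3 was below CRES-1, and the Fibroblasts, lowest here, were highest. Over the 18 pluripotent arrays, r with this list mean was 0.75 for NANOG and 0.61 for VSNL1. It was -0.58 for CD9, -0.55 for UTF1 and -0.33 to 0.21 for the other members. The part of fibroblast or differentiating cells in the member differences was not tested.

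**Figure D5:**
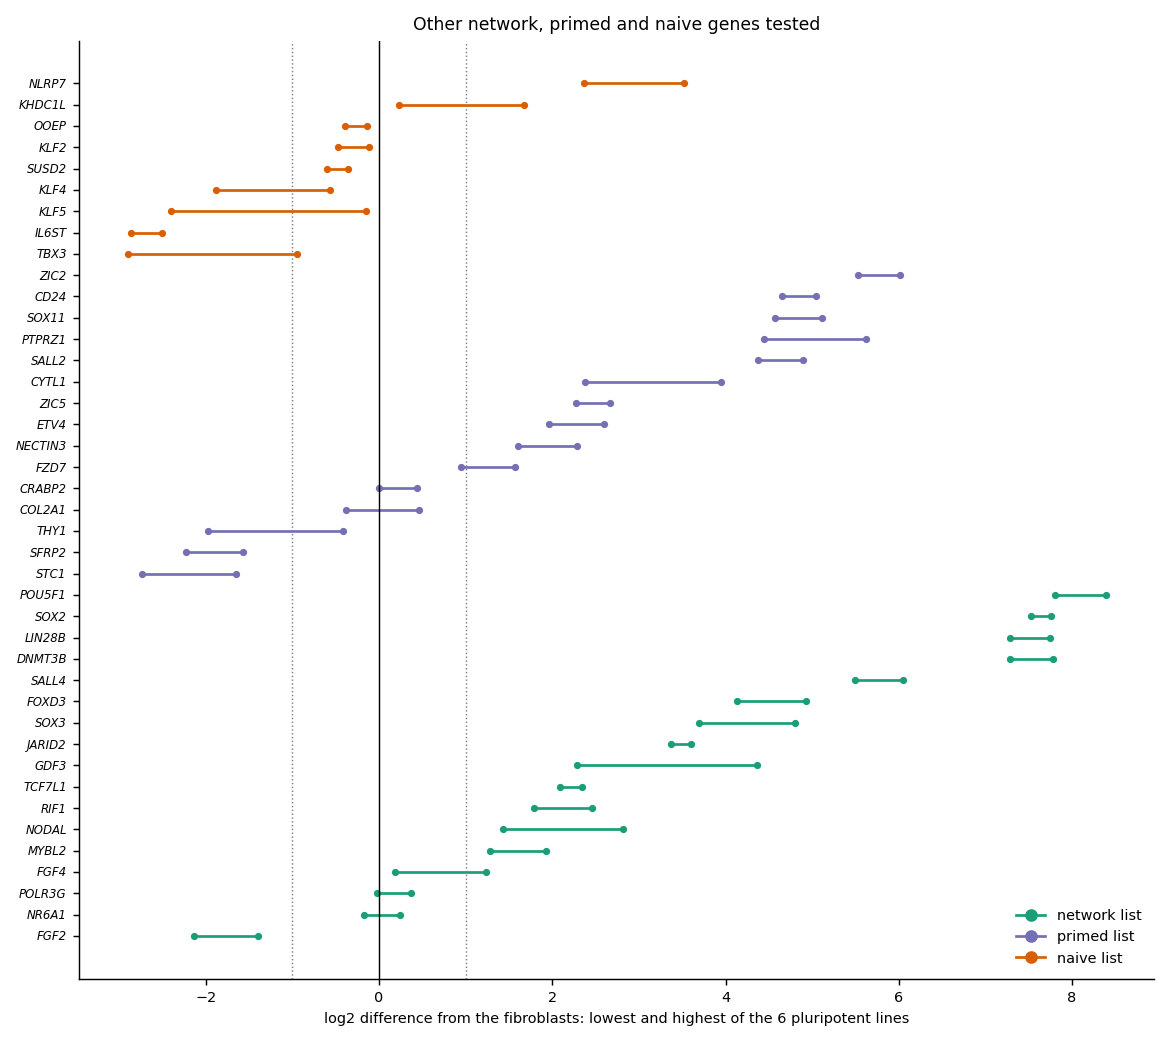
Log2 difference from the Fibroblasts (horizontal axis) of each network, primed and naive gene tested, drawn as a bar from the lowest to the highest of the 6 pluripotent lines, with dotted lines at a 2-fold difference. POU5F1 (7.80 to 8.39) lies farthest to the right, as a difference from Fibroblasts values under log2 5 and so no measured ratio. FGF2 (-2.14 to -1.40) is the network gene farthest to the left. Most of the naive genes that passed the filter lie below 0.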

How the data were processed

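RNA of 7 rhesus macaque lines, 3 arrays each, was measured on Affymetrix arrays. The authors deposited 1 log2 intensity for each probe set and array, computed with RMA per the submitters' processing notes, and the RMA version and chip annotation used are not given in the sources here. They ran from 2.09 to 14.7, with array medians of 4.98 to 5.14. The highest correlation between arrays was 0.996, so no array was taken for a copy of another. Precision is limited by the number of arrays.

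Of the probe sets, 24969 carried 1 gene symbol, 361 several and 27535 none; the latter groups were left out. Each gene was read from its brightest probe set by mean over all arrays. A linear model of line means, with 14 degrees of freedom for the residual spread, was fitted in limma 3.58.1 with R 4.3.3, with empirical Bayes moderation and Benjamini-Hochberg adjustment over all 11143 genes tested. P-values are two-sided. The fit was tested on simulated data. Whether the letters A, B and C pair arrays was checked by correlating deviations from line means. In 1 of 21 pairs of lines, CRES-1 and RiPS1, every same-letter correlation was over 0.1 (0.32 to 0.35, other letters at most 0.04), so the letters were taken to pair those arrays, and a fit of them with a replicate block was added after seeing the data. The pairing comes from the data, as the labels do not say what a letter shares.

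Named were the 9 members, for each the 3 genes of highest r over 21 and over 18 arrays, up to 4 genes per list with the smallest F test p over the 7 lines, and POU5F1 and SOX2. Members and lists were chosen with earlier results of these data known. Alternatives were other scalings, filters, probe set means, an intensity trend, a replicate block, the compared lines alone and each array left out. A planned motif search in promoters was not run, as no sequences were used here.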

Additional observations from a re-analysis of the deposited data

Results flagged for a closer look

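For 3 members the cloned minus induced difference was not the same in the male pair (CRES-1 and RiPS1) and the female pair (CRES-3 and RiPS3), by limma's test of the interaction itself, adjusted over all genes tested. VSNL1 was 1.86 higher in the cloned line of the male pair and 0.86 lower in that of the female pair, a difference of 2.71 (SE 0.48, adjusted p 0.0041). PRDM14 was 0.50 lower in the cloned line of the male pair and 1.30 higher in that of the female pair (-1.79, SE 0.43, adjusted p 0.022). DPPA4 was 0.64 higher and 0.55 lower in the cloned line (1.19, SE 0.32, adjusted p 0.043). Groups of 3 arrays were not tested for stray arrays.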

How the results depend on the processing

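No called member changed sign under any alternative. Of the 45 called member differences, 358 of 361 values under other settings were called and 3 were not, and of the 90 not called, 3 of 713 values were. With 1 array left out, 34 of 312 values lost the call and 6 of 660 gained one. Leaving out 1 array gave 0 to 2 members called between CRES-3 and ORMES23, 1 to 2 between RiPS1 and ORMES23, 0 to 1 between CRES-3 and RiPS3, 1 to 3 for the interaction and 1 to 3 for differences among the pluripotent lines. A replicate block within CRES-1 and RiPS1, whose letters pair, gave 1 member called as without it, VSNL1 (1.86, adjusted p 0.0058), and changed no other member's call there. Over all lines the letters do not pair the arrays (20 of 63 same-letter correlations over 0.1, median 0.01). VSNL1 was highest on array C in 5 of 6 pluripotent lines, and CD9 on array B in 5 of 6. Over all lines, a replicate block gave 2 members called between RiPS1 and ORMES23 in place of 1, adding ZFP42 (-1.82, adjusted p 0.026). It gave 2 in place of 3 for the interaction, losing DPPA4 (adjusted p 0.054), and 3 in place of 2 among the pluripotent lines, adding NANOG (adjusted p 0.041). A fit of the pluripotent arrays alone also added NANOG (adjusted p 0.033). With the arrays of ORMES23 and the Fibroblasts alone, ZFP42 lost its call (adjusted p 0.060). The cause was not tested. Between CRES-1 and ORMES23, 0 of all genes were called, against 40 without array A of ORMES23. Between CRES-3 and RiPS3, 4 were called, against 20 without array A of RiPS3 and 1 without array B or C of RiPS3 or array B of CRES-3. Between RiPS2 and ORMES23, 51 were called, against 11 with those arrays alone, and between RiPS3 and ORMES23, 85 against 27. With 1 array left out, counts of all genes ran from 52 (without CRES-3 array B) to 194 (without ORMES23 array A) between CRES-3 and ORMES23, where all arrays gave 111. They ran from 27 (without RiPS2 array A) to 74 (without RiPS2 array B) for RiPS2 and from 34 (without RiPS3 array B) to 182 (without RiPS3 array A) for RiPS3, both against ORMES23. For the interaction they ran from 186 (without CRES-1 array A) to 435 (without RiPS1 array C), against 322. Values under log2 5 limit ZFP42 and KLF17.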
